A study of Sus scrofa with 18 samples.

Results

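The genes described here are the nucleoporins and the nuclear transport receptors of the pig, as they were expressed in cloned embryos. Members were taken by gene symbol, as every gene whose name in the deposited tables begins with NUP, KPNA, KPNB, IPO, XPO or TNPO followed by a number, together with XPOT. The rule found 45 of the 24358 genes listed. By their known place they are 6 genes of the Y complex, 5 of the inner ring, 4 of the central channel, 2 of the cytoplasmic side, 2 of the nuclear basket, 2 membrane nucleoporins, 7 importin alphas, 11 importin betas and transportins, and 6 exportins.

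The embryos were made by somatic cell nuclear transfer, in which an enucleated oocyte is fused with a donor cell, here a cultured cell from the ear of a Diannan miniature pig. In the vitrified groups the activated 1-cell embryo, called the cloned zygote, was vitrified, which is cooling so fast in concentrated cryoprotectant that no ice forms, and was then warmed and cultured. In the fresh groups the cloned zygotes were cultured without vitrification. Vitrified and fresh embryos were collected as 2-cells (24 h after activation, 4 embryos in a library), as 4-cells (48 h, 2 embryos) and as blastocysts (144 h, 1 embryo), with 3 libraries in each of the 6 groups. All embryos were clones of cultured cells, so no embryo of natural fertilization was compared, and only embryos that had reached a stage were sampled there.

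The nuclear pore complex is a channel through the nuclear envelope built from many copies of the nucleoporins. The Y complex and the inner ring form its scaffold, the central channel nucleoporins carry the phenylalanine-glycine repeats that receptors pass through, and the cytoplasmic filaments and the nuclear basket extend to either side. An importin alpha recognises a classical nuclear localization signal and is itself carried by KPNB1, other importins and transportins bind their cargo directly, and exportins carry proteins and RNA out of the nucleus. In early mammalian embryos these proteins and transcripts are at first inherited from the oocyte, and genome activation of the pig embryo is known to occur around the 4-cell stage.

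Values are FPKM, the fragments of a gene scaled to the length of its transcript and to the size of the library. FPKM hold no counts, so the depth behind a value is unknown and no counting interval was computed. A lower FPKM is a smaller share of the RNA of the library, and in these whole-embryo libraries fewer cells with a transcript and less RNA per cell cannot be told apart. Replicate libraries correlated with those of their stage at a mean of 0.941 to 0.967 in 2-cells and 0.949 to 0.964 in blastocysts. In 4-cells the mean correlation was 0.869 to 0.892 for 5 libraries and 0.763 for vitrified replicate 3, which stands apart. Of the stage markers examined, 8 oocyte genes summed to 983 to 2529 FPKM in the 2-cell and 4-cell libraries and to 1.21 to 5.68 FPKM in blastocysts, and all 7 trophectoderm markers reached 1 FPKM in each blastocyst. Markers of cumulus cells summed to at most 4.80 FPKM in any library. The 8 fibroblast markers, listed for the donor cells, summed to 3.08 to 4.52 FPKM in 2-cells, 5.44 to 8.73 FPKM in 4-cells and 0.0328 to 0.690 FPKM in blastocysts. Of these 8, 2 to 4 reached 1 FPKM in each 4-cell library. Where these transcripts came from was not tested.

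Summed over the 45 genes, expression was higher in every 2-cell and 4-cell library than in any blastocyst. The summed level of the 45 ranged over 2300.1 to 2974 FPKM at the 2-cell stage, 1512 to 2043 FPKM at the 4-cell stage and 215 to 315 FPKM in blastocysts. KPNA2 and KPNA7 together held 51.0% to 72.2% of the sum in 2-cells, 44.5% to 58.0% in 4-cells and 9.12% to 12.3% in blastocysts. The 3 highest genes were KPNA7, KPNA2 and NUP35 in 2-cells, KPNA7, KPNA2 and NUP214 in 4-cells, and KPNA2, IPO5 and KPNB1 in blastocysts. The importin betas and transportins summed to 52.4 to 80.2 FPKM in 2-cells, 66.9 to 118 FPKM in 4-cells and 63.0 to 93.6 FPKM in blastocysts, and the exportins to 32.8 to 49.5, 27.6 to 71.4 and 31.6 to 41.2 FPKM. Both receptor classes thus overlapped in range between the 3 stages, while the Y complex summed to 161 to 278, 108 to 185 and 20.4 to 33.9 FPKM and the inner ring to 243 to 462, 120.2 to 331 and 24.0 to 39.0 FPKM. Most of the inner ring sum in 2-cells and 4-cells came from NUP35. It averaged 374, 179 and 13.8 FPKM over the 3 stages, of class means of 395, 207 and 27.9 FPKM. NUP155, NUP205 and NUP93 had their lowest mean in blastocysts, and NUP188 its highest.

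**Figure D1:**
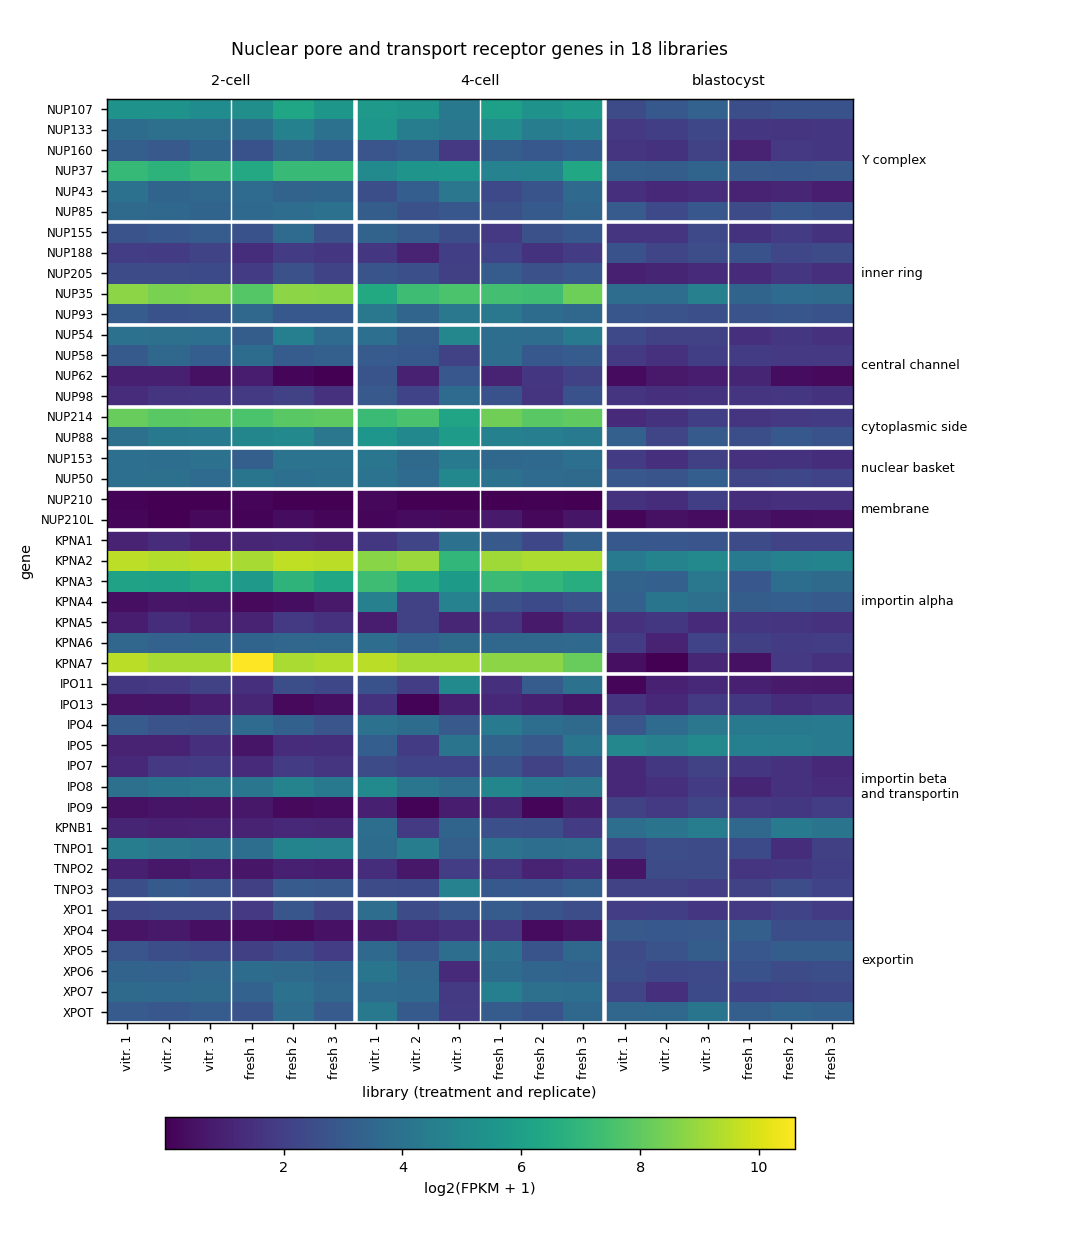
Level of each of the 45 genes (rows, grouped by place or class) in each of the 18 libraries (columns, 3 vitrified and 3 fresh at each stage), as log2(FPKM + 1) in colour. KPNA2, KPNA7, NUP35, NUP214 and NUP37 are brighter in every 2-cell and 4-cell column than in any blastocyst column, although KPNA2 remains among the brightest rows there. The rows of IPO5 and KPNB1 have their brightest column in blastocysts.

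Changes between stages were tested with limma on log2(FPKM + 1), a linear model that borrows the spread between replicates across genes. Vitrified and fresh embryos had separate contrasts in 1 fit of all 18 libraries. The spread of a gene was thus shared over all stages and both treatments, and the standard errors and adjusted p of a step are not those of its own libraries alone. A gene was called in a stage step at an adjusted p under 0.05 with a log2 change beyond 1. The 11361 genes tested had reached 1 FPKM in 3 or more of all 18 libraries, and 44 of the 45 members were among them. NUP210L, a relative of NUP210, stayed below 1 FPKM in every library and was not tested. NUP210 and IPO9 passed this filter only through the blastocysts, so they could only be found higher there.

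Between the 2-cell and the 4-cell stage 11 of 44 members were called in vitrified embryos, where 19.9% of all genes tested were called, and 5 of 44 in fresh embryos, where 8.52% were. In vitrified embryos 8 members rose and 3 fell, against 9.08% and 10.9% of all genes, and in fresh embryos 4 rose and 1 fell, against 4.81% and 3.71%. Leaving out a library moved these counts, to 7 in vitrified embryos without 2-cell replicate 1 (KPNA1, KPNA2, NUP62 and NUP88 lost), and in fresh embryos to 2 without 2-cell replicate 1 (IPO5 and NUP37), 2 without 4-cell replicate 1 (IPO5 and KPNA4) and 3 without 2-cell replicate 3 (IPO5, KPNA4 and NUP37). KPNA1, KPNA4 and IPO5 rose and NUP37 fell in both, which is 36.4% of the members called in vitrified and 80.0% of those called in fresh embryos, beside 32.0% and 75.0% over all genes called. In the vitrified embryos alone KPNB1, NUP62, NUP98, NUP93 and NUP88 were called higher and NUP35 and KPNA2 lower, and in the fresh alone XPO5 was called higher. A fit of only the 6 vitrified libraries compared called 2 members, KPNA4 and NUP37, in place of 11. The shares of all genes called in this fit and without single libraries are not given, so how far all genes moved alike cannot be told. Of the vitrified calls in the fit of all libraries, that of KPNA1 was lost without 2-cell replicate 1 or 3 or 4-cell replicate 3, those of KPNA2 and NUP62 were lost without any single 2-cell library and without 4-cell replicate 3, that of NUP62 also without 4-cell replicate 1, that of KPNA2 also with quantile normalization, that of NUP88 without 2-cell replicate 1 and that of NUP98 without 4-cell replicate 3. Whether these steps differ between vitrified and fresh embryos was tested directly, with the values given for the interaction, and no member passed.

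Between the 4-cell and the blastocyst stage 30 of 44 members were called in vitrified embryos (58.6% of all genes) and 27 of 44 in fresh embryos (62.5%). In vitrified embryos 25 members fell and 5 rose, against 33.9% and 24.6% of all genes tested. In fresh embryos 23 members fell and 4 rose, against 38.6% and 23.9% of all genes. The median log2 change of the members was -1.18 in vitrified and -1.07 in fresh embryos, beside -0.38 and -0.56 over all genes. Of the calls, 25 were shared in gene and direction, 21 lower and 4 higher, which is 83.3% of the vitrified and 92.6% of the fresh calls, beside 87.0% and 81.6% over all genes called.

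The split between higher and lower calls in this step depends on how libraries are scaled, and the median of all genes moved with it, to -0.15 and -0.14 in vitrified and to -0.13 and -0.09 in fresh embryos with quantile normalization and with the median ratio. With quantile normalization 26 members were called in vitrified embryos, 7 higher and 19 lower, where 28.2% and 29.1% of all genes were, and 27 in fresh embryos, 9 higher and 18 lower, where 30.6% and 30.5% were. With the median ratio the counts were 7 and 19 in vitrified embryos, against 29.2% and 28.9% of all genes, and 10 and 16 in fresh embryos, against 32.1% and 29.8%. Under both scalings the calls of NUP155, NUP50, NUP93, TNPO3, XPO1 and XPO7 ended in vitrified embryos and those of NUP205, NUP50, NUP58, NUP62 and NUP93 in fresh embryos, the fresh calls of KPNA6 and NUP160 ended with the median ratio, and NUP188 and XPOT in vitrified and NUP188, IPO5, KPNA4, IPO13 and TNPO2 in fresh embryos were newly called, with IPO4 in fresh embryos under the median ratio alone. No called member changed direction under either scaling. All 6 blastocyst libraries lay below all 4-cell and 2-cell libraries for 19 of the 45 members, as they did for 29.9% of the genes tested, and above them for 5 members (NUP188, NUP210, IPO5, IPO9 and XPO4), as they did for 20.2%. Of these 5, NUP210 and IPO9 had passed the filter only through the blastocysts.

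**Figure D2:**
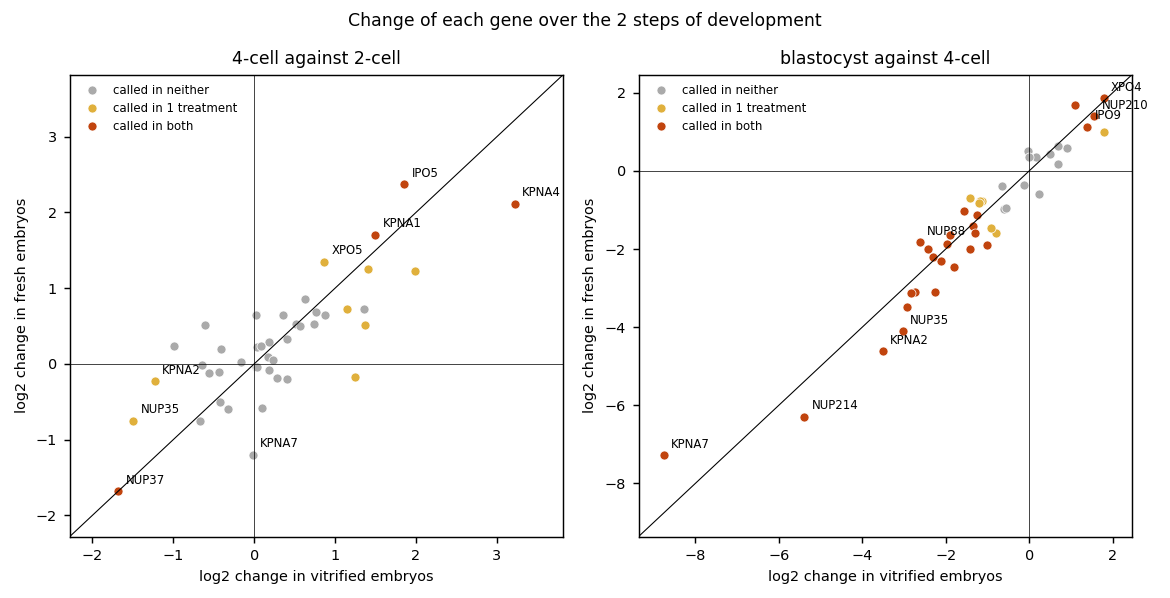
Log2 change of each of the 44 members tested from the 2-cell to the 4-cell stage (left) and from the 4-cell to the blastocyst stage (right), in vitrified embryos on the x axis and fresh embryos on the y axis, with the diagonal marking equal change. KPNA4 and IPO5 lie highest on the left, and KPNA7, NUP214, KPNA2 and NUP35 lie lowest on the right.

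KPNA7, an importin alpha known from mammalian oocytes and early embryos, had 728, 588 and 590.3 FPKM in vitrified and 1549, 611 and 663 FPKM in fresh 2-cells. At the 4-cell stage it had 729.7, 581 and 574 FPKM in vitrified and 425, 435 and 280.1 FPKM in fresh embryos. In blastocysts 0.356, 0.0001 and 1.21 FPKM were left in vitrified and 0.405, 2.43 and 1.88 FPKM in fresh embryos, 0.0001 being the floor value of the deposited tables. Fresh 2-cell replicate 1 was the highest library, and every blastocyst lay far below every earlier library. The change from the 4-cell to the blastocyst stage was -8.76 on the log2 scale in vitrified embryos (SE 0.40, adjusted p = 1.91e-11) and -7.28 in fresh embryos (SE 0.40, adjusted p = 1.40e-10), where the mean FPKM was 242-fold lower in blastocysts.

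KPNA2, the importin alpha most often linked to proliferating cells, had 748, 658 and 714 FPKM in vitrified and 599, 777 and 728 FPKM in fresh 2-cells. In 4-cells it had 414, 508 and 128 FPKM in vitrified and 544, 627 and 619 FPKM in fresh embryos, and in blastocysts 20.5, 26.1 and 30.4 FPKM in vitrified and 19.9, 24.6 and 26.4 FPKM in fresh embryos. At the first step it fell in vitrified embryos (-1.23 on the log2 scale, adjusted p = 0.0244), where 4-cell replicate 3 was far below the other two, and its change of -0.23 in fresh embryos was not called (adjusted p = 0.790). At the second step the change was -3.51 in vitrified (adjusted p = 3.88e-07) and -4.61 in fresh embryos (adjusted p = 1.27e-08). Unlike KPNA7 it remained in all blastocysts, with a mean level of 24.6 FPKM beside 24.5 FPKM for IPO5. KPNA2 and KPNA7 are related in sequence, and how reads that match both were assigned is not given in the sources used here.

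KPNA3 and KPNA4 are close relatives of each other. KPNA3 ranged over 51.3 to 117 FPKM in 2-cells, 53.4 to 158 FPKM in 4-cells and 6.32 to 17.7 FPKM in blastocysts, a change of -2.93 in vitrified and -3.49 in fresh embryos on the log2 scale (adjusted p = 8.11e-06 and 9.20e-07). KPNA4 was below 1 FPKM in every 2-cell library. At the 4-cell stage it had 23.5, 3.15 and 24.6 FPKM in vitrified and 5.16, 4.26 and 5.61 FPKM in fresh embryos, and in blastocysts 8.44, 16.3 and 13.9 FPKM in vitrified and 7.61, 7.97 and 6.95 FPKM in fresh embryos. It rose between the 2-cell and 4-cell stages by 3.22 in vitrified (SE 0.49, adjusted p = 0.000286) and 2.12 in fresh embryos (SE 0.49, adjusted p = 0.0119), and its later change passed in neither, although the fresh change of 0.51 became 1.23 and was called under both other scalings.

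KPNA1 rose at the same step, by 1.50 in vitrified and 1.71 in fresh embryos (adjusted p = 0.0151 and 0.0155). It had 1.06, 1.57 and 0.999 FPKM in vitrified and 1.23, 1.25 and 1.08 FPKM in fresh 2-cells, and at the 4-cell stage 2.31, 3.61 and 14.6 FPKM in vitrified and 6.75, 3.89 and 8.57 FPKM in fresh embryos. The ranges of the 2 stages did not overlap. From there to the blastocyst its change was 0.23 in vitrified and -0.59 in fresh embryos, neither called, and the fresh value turned to 0.11 and 0.10 under the 2 other scalings. KPNA6 held 9.15 to 10.7 FPKM in 2-cells and 9.04 to 13.0 FPKM in 4-cells and fell to 1.09 to 3.42 FPKM in blastocysts, a change of -1.90 in vitrified and -1.65 in fresh embryos (adjusted p = 7.49e-06 and 2.89e-05), the fresh change becoming -0.97 and uncalled with the median ratio. KPNA5 was low throughout, at 0.754 to 2.44, 0.680 to 3.21 and 1.44 to 2.31 FPKM over the 3 stages, and was called in no step.

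The makeup of the importin alpha family therefore differed by stage. KPNA2 and KPNA7 held 91.3% to 97.1% of the summed importin alpha FPKM in 2-cells, 84.9% to 90.7% in 4-cells and 41.9% to 51.6% in blastocysts. KPNA7 alone held 40.2% to 70.1%, 27.4% to 71.0% and at most 4.30%. In blastocysts KPNA3 held 13.9% to 24.0%, KPNA4 12.7% to 26.9% and KPNA1 6.12% to 13.2%, while KPNA4 and KPNA1 had held at most 0.0430% and 0.118% in 2-cells. The family as a whole summed to 1326 to 2212, 808 to 1341 and 43.9 to 73.9 FPKM, so the larger shares of the blastocyst are shares of a far smaller sum.

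**Figure D3:**
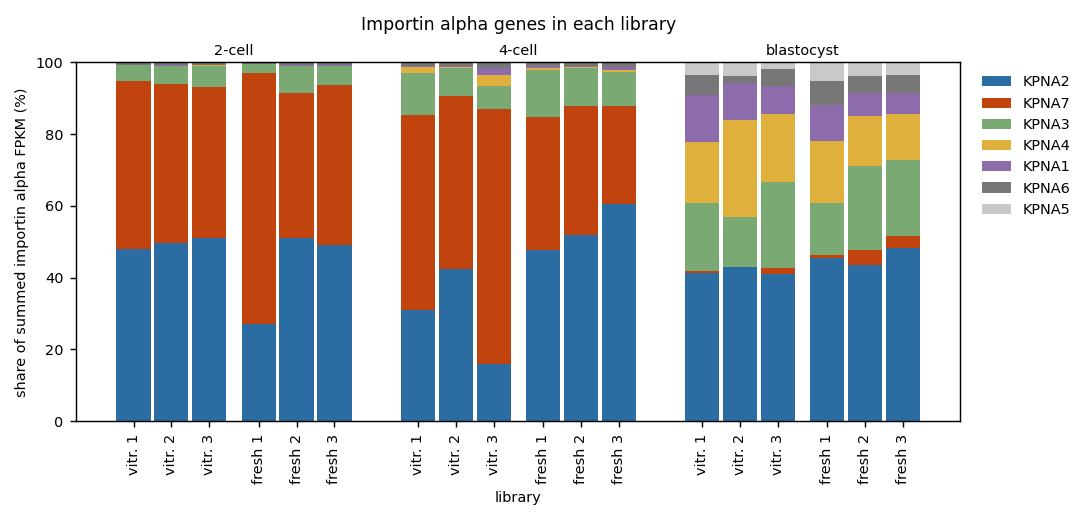
Share of each importin alpha gene in the summed importin alpha FPKM of a library (stacked bars, in percent), for the 3 vitrified and 3 fresh libraries of each stage. KPNA2 and KPNA7 fill 84.9% to 97.1% of every 2-cell and 4-cell bar, whereas KPNA7 is at most 4.30% of a blastocyst bar and KPNA3, KPNA4 and KPNA1 are wide.

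KPNB1, the importin beta that carries the importin alphas, moved the other way from KPNA2 and KPNA7. It had 1.14, 0.971 and 0.995 FPKM in vitrified and 1.04, 1.27 and 1.18 FPKM in fresh 2-cells. In 4-cells it had 13.4, 2.44 and 9.60 FPKM in vitrified and 5.04, 4.90 and 2.64 FPKM in fresh embryos, and in blastocysts 13.3, 16.1 and 20.6 FPKM in vitrified and 10.7, 20.3 and 16.1 FPKM in fresh embryos. Every blastocyst was above every 2-cell library, whereas vitrified 4-cell libraries 1 and 2 lay on either side of the fresh ones. From the 2-cell to the 4-cell stage it rose by 1.99 in vitrified embryos (adjusted p = 0.00252), and the change of 1.23 in fresh embryos was not called (adjusted p = 0.0690). It rose again to the blastocyst, by 1.11 in vitrified and 1.68 in fresh embryos (adjusted p = 0.0240 and 0.00146), the vitrified call being lost without 4-cell replicate 2 or blastocyst replicate 3.

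IPO5, an importin for histones and ribosomal proteins, had the largest rise of all members at the first step in fresh embryos. It had 1.10, 1.06 and 1.67 FPKM in vitrified and 0.512, 1.54 and 1.64 FPKM in fresh 2-cells, and 7.92, 2.62 and 15.9 FPKM in vitrified and 9.43, 6.78 and 16.3 FPKM in fresh 4-cells. Blastocysts had 28.7, 23.7 and 30.6 FPKM when vitrified and 22.8, 22.1 and 19.2 FPKM when fresh. The ranges of the 3 stages did not overlap. The first step was 1.86 in vitrified (adjusted p = 0.00579) and 2.37 in fresh embryos (adjusted p = 0.00305) on the log2 scale, and the second 1.80 in vitrified (adjusted p = 0.00145) and 1.00 in fresh embryos, the last with an adjusted p of 0.0482 but a change just short of 1. With quantile normalization it was 1.62 and with the median ratio 1.78, both called.

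IPO9, an importin for core histones and actin, rose to the blastocyst by 1.40 in vitrified and 1.13 in fresh embryos (adjusted p = 0.000153 and 0.000886). It was at 0.0743 to 1.15 FPKM in 4-cells and 2.31 to 3.63 FPKM in blastocysts, and the fresh call was lost without 4-cell replicate 2. Because IPO9 passed the filter only through the blastocysts, a rise there was the only change that could be found. IPO8, an importin with Argonaute proteins among its cargo, was called lower. It had 14.2 to 25.8 FPKM in 2-cells, 12.9 to 32.1 FPKM in 4-cells and 1.17 to 2.59 FPKM in blastocysts. Its change to the blastocyst was -2.84 in vitrified and -3.13 in fresh embryos (adjusted p = 7.48e-07 and 1.93e-07). TNPO1, the transportin of many RNA-binding proteins, and IPO11 fell at the same step in both, with TNPO1 at 8.17 to 21.4 FPKM in 4-cells and 1.58 to 4.70 FPKM in blastocysts. IPO11 had 5.38, 2.76 and 31.9 FPKM in vitrified and 1.74, 7.40 and 14.3 FPKM in fresh 4-cells, with most of the vitrified level in replicate 3, and its fresh call was lost without 4-cell replicate 3. TNPO3, the receptor of serine- and arginine-rich splicing factors, was called lower in vitrified embryos only, where 4-cell replicate 3 held 25.1 FPKM against 4.26 and 4.50 FPKM in the other two, and the call was lost without that library or any single vitrified blastocyst and under both other scalings (-0.76 and -0.81). IPO7 was called in no step, and neither were IPO4, IPO13 and TNPO2 before the other scalings.

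XPO1, the main exportin of proteins with leucine-rich export signals, ranged over 2.43 to 6.23 FPKM in 2-cells, 4.52 to 12.8 FPKM in 4-cells and 2.17 to 3.56 FPKM in blastocysts. It was called lower in blastocysts in vitrified embryos at -1.19 (adjusted p = 0.00414), a call lost without 4-cell replicate 1 and under both other scalings (-0.86 and -0.83), and the change of -0.83 in fresh embryos (adjusted p = 0.0322) did not reach the fold required. XPO4, a receptor that exports the translation factor eIF5A, rose most of all members at the second step in fresh embryos. It had 0.691, 1.36 and 1.73 FPKM in vitrified and 2.43, 0.249 and 0.478 FPKM in fresh 4-cells, and 6.77, 6.49 and 6.74 FPKM in vitrified and 8.17, 4.77 and 4.81 FPKM in fresh blastocysts, with no overlap between the stages. The change was 1.79 in vitrified (SE 0.32, adjusted p = 0.000106) and 1.87 in fresh embryos (SE 0.32, adjusted p = 6.02e-05).

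XPO5, which exports precursor microRNAs, had 5.86, 4.91 and 4.02 FPKM in vitrified and 2.98, 4.23 and 2.75 FPKM in fresh 2-cells, and 11.4, 6.06 and 13.0 FPKM in vitrified and 14.9, 5.81 and 10.9 FPKM in fresh 4-cells. The stages did not overlap in either treatment. The rise was called in fresh embryos at 1.35 (SE 0.33, adjusted p = 0.0171) and not in vitrified embryos at 0.86 (SE 0.33, adjusted p = 0.0699). XPO7 fell to the blastocyst in both, with changes of -1.01 in vitrified and -1.90 in fresh embryos (adjusted p = 0.0400 and 0.000584), and its vitrified call was lost without 4-cell replicate 1 or 2 or blastocyst replicate 1 or 2, and under both other scalings (-0.69 and -0.65). XPO6, the exportin of actin, and XPOT, that of transfer RNA, were called in no step, XPOT before the other scalings.

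**Figure D4:**
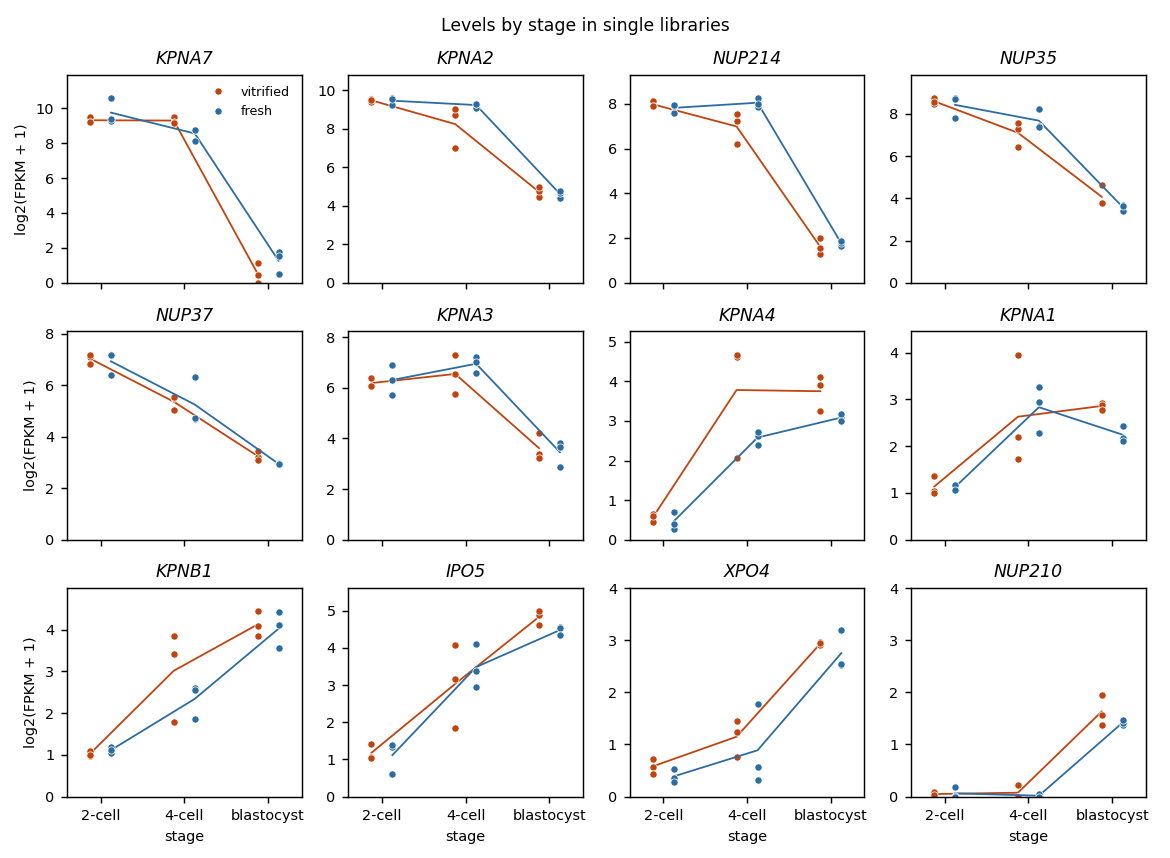
Levels of 12 members by stage on the log2(FPKM + 1) scale, with a point for each library, vitrified in red and fresh in blue, and lines through the group means. KPNA7, KPNA2, NUP214, NUP35, NUP37 and KPNA3 end lowest in blastocysts, while KPNB1, IPO5, XPO4 and NUP210 end highest there.

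In the Y complex, the outer scaffold of the pore, NUP37 fell at both steps. It had 137, 114 and 142 FPKM in vitrified and 84.1, 146 and 145 FPKM in fresh 2-cells. In 4-cells it had 31.5, 44.2 and 46.3 FPKM in vitrified and 24.7, 25.7 and 79.6 FPKM in fresh embryos, and in blastocysts 8.27, 7.64 and 9.80 FPKM in vitrified and 6.81, 6.62 and 6.75 FPKM in fresh embryos. No library of a later stage reached the range of an earlier one. The first step was -1.68 in vitrified and -1.68 in fresh embryos (adjusted p = 0.00397 and 0.00900), and the second -2.11 in vitrified and -2.30 in fresh embryos (adjusted p = 8.38e-05 and 2.95e-05). NUP107 and NUP133, neighbours in the stem of the complex, were not called at the first step in either treatment. NUP107 had 18.6 to 62.0 FPKM in 4-cells and 4.52 to 9.19 FPKM in blastocysts, and NUP133 had 16.9 to 46.9 and 2.06 to 3.94 FPKM. At the second step 4 of the 6 genes were called lower in vitrified embryos and 5 in fresh embryos, where 33.9% and 38.6% of all genes were called lower. These were NUP107, NUP133, NUP37 and NUP43 in both and NUP160 in fresh embryos, where NUP160 was at -0.99 and uncalled with the median ratio. NUP85 was called in neither, at -0.13 in vitrified and -0.36 in fresh embryos, values that lie above 0 under the 2 other scalings.

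NUP35 was the most abundant nucleoporin of the inner ring. It had 430.0, 358 and 378 FPKM in vitrified and 222, 436 and 420.0 FPKM in fresh 2-cells, and 85.0, 157 and 192 FPKM in vitrified and 171, 163 and 305 FPKM in fresh 4-cells. Blastocysts kept 12.9, 12.9 and 23.8 FPKM in the vitrified and 9.70, 11.9 and 11.6 FPKM in the fresh group, all below every earlier library. At the second step its change was -3.03 in vitrified and -4.09 in fresh embryos (adjusted p = 1.46e-06 and 3.65e-08), and at the first -1.49 in vitrified embryos (adjusted p = 0.00755), with -0.75 in fresh embryos not called (adjusted p = 0.221). NUP205 and NUP93 fell at the second step in both treatments, and NUP155 in vitrified embryos, the fresh call of NUP93 and the call of NUP155 each lost without 4-cell replicate 1 of their treatment. With quantile normalization and the median ratio NUP93 was at -0.86 and -0.86 in vitrified and -0.43 and -0.39 in fresh embryos, NUP155 at -0.80 and -0.79 in vitrified and NUP205 at -0.83 and -0.81 in fresh embryos, and none of these was called. NUP188, the paralog of NUP205, was not called. It had 1.10 to 3.41 FPKM in 4-cells and 3.68 to 5.46 FPKM in blastocysts, with changes of 0.90 in vitrified and 0.60 in fresh embryos (adjusted p = 0.00745 and 0.0566). With quantile normalization and the median ratio it was called higher, at 1.22 and 1.24 in vitrified and 1.29 and 1.26 in fresh embryos.

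On the cytoplasmic side, NUP214, whose repeats bind export complexes, showed the second largest fall. It had 282, 236 and 243 FPKM in vitrified and 195, 237 and 249 FPKM in fresh 2-cells. In 4-cells it had 151, 185 and 72.6 FPKM in vitrified and 310.1, 233 and 258 FPKM in fresh embryos, and in blastocysts 1.44, 1.91 and 2.96 FPKM in vitrified and 2.12, 2.43 and 2.67 FPKM in fresh embryos. The second step was -5.39 in vitrified (SE 0.31, adjusted p = 3.19e-10) and -6.29 in fresh embryos (SE 0.31, adjusted p = 4.53e-11), with mean FPKM 64.6-fold lower in vitrified and 111-fold lower in fresh blastocysts. NUP88, which binds NUP214, fell as well, with changes of -2.63 in vitrified and -1.82 in fresh embryos (adjusted p = 1.69e-06 and 7.26e-05), and still had 3.62 to 8.48 FPKM in blastocysts. The level of NUP214 was above that of NUP88 in every 2-cell and 4-cell library and below it in every blastocyst.

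In the central channel NUP54 and NUP62 fell at the second step in both treatments, NUP98 in vitrified and NUP58 in fresh embryos. NUP62 was low in all libraries, at 0.0001 to 0.925, 0.940 to 6.39 and 0.211 to 1.14 FPKM, with its highest values in 4-cells, and its fresh call was lost without 4-cell replicate 2 or 3 or blastocyst replicate 2 or 3. Under both other scalings the fresh changes of NUP62 (-0.63 and -0.64) and NUP58 (-0.83 and -0.80) were not called. In the nuclear basket NUP153 and NUP50 fell in both, although NUP50 was not called in vitrified embryos without 4-cell replicate 3, nor under both other scalings in vitrified (-0.88 and -0.88) or fresh embryos (-0.91 and -0.88). NUP153 had changes of -2.31 in vitrified and -2.21 in fresh embryos (adjusted p = 1.60e-06 and 2.21e-06). NUP210, a membrane nucleoporin known from differentiating muscle and nerve cells of the mouse, was the single nucleoporin called higher at this step. It was at most 0.166 FPKM in any 2-cell or 4-cell library and had 1.97, 1.60 and 2.87 FPKM in vitrified and 1.59, 1.68 and 1.77 FPKM in fresh blastocysts, a change of 1.56 in vitrified and 1.41 in fresh embryos (adjusted p = 4.30e-07 and 1.14e-06) on a scale that shrinks such low values.

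Vitrified and fresh embryos of the same stage were compared with limma within the 6 libraries of the stage, keeping genes that reached 1 FPKM in 3 or more of these 6, and a gene was called at an unadjusted p under 0.05 with a log2 change beyond 1. Of the members, 37 were tested in 2-cells, 41 in 4-cells and 42 in blastocysts. In 2-cells none was called by limma, against 0.450% of all genes tested, and none had an unadjusted p under 0.05, against 3.75% of all genes. Without fresh replicate 1, 4 members had such a p there, all lower in vitrified embryos, without fresh replicate 3 there were 2, and without fresh replicate 2 there was 1 on the higher side. In 4-cells 1 was called, against 3.46% of all genes, or 2.46% called lower. With the replicate number as a block the same member was called, against 5.54% of all genes, or 3.85% called lower. In blastocysts none was called, against 2.26%, and 4 had an unadjusted p under 0.05, all higher, against 16.2% of all genes, or 12.9% higher. That count was 7 higher without vitrified replicate 1, 1 higher without fresh replicate 3 and 3 higher with 1 lower without vitrified replicate 3, and 3 higher with 1 lower under either other scaling. For these counts, and those of 2-cells without single libraries, the share of all genes is not given. Whether the members moved apart from all genes there cannot be told. No member reached an adjusted p under 0.05 at any stage, the lowest being 1.00 in 2-cells, 0.947 in 4-cells and 0.157 in blastocysts, and 0%, 0.0114% and 0.0128% of all genes did.

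**Figure D5:**
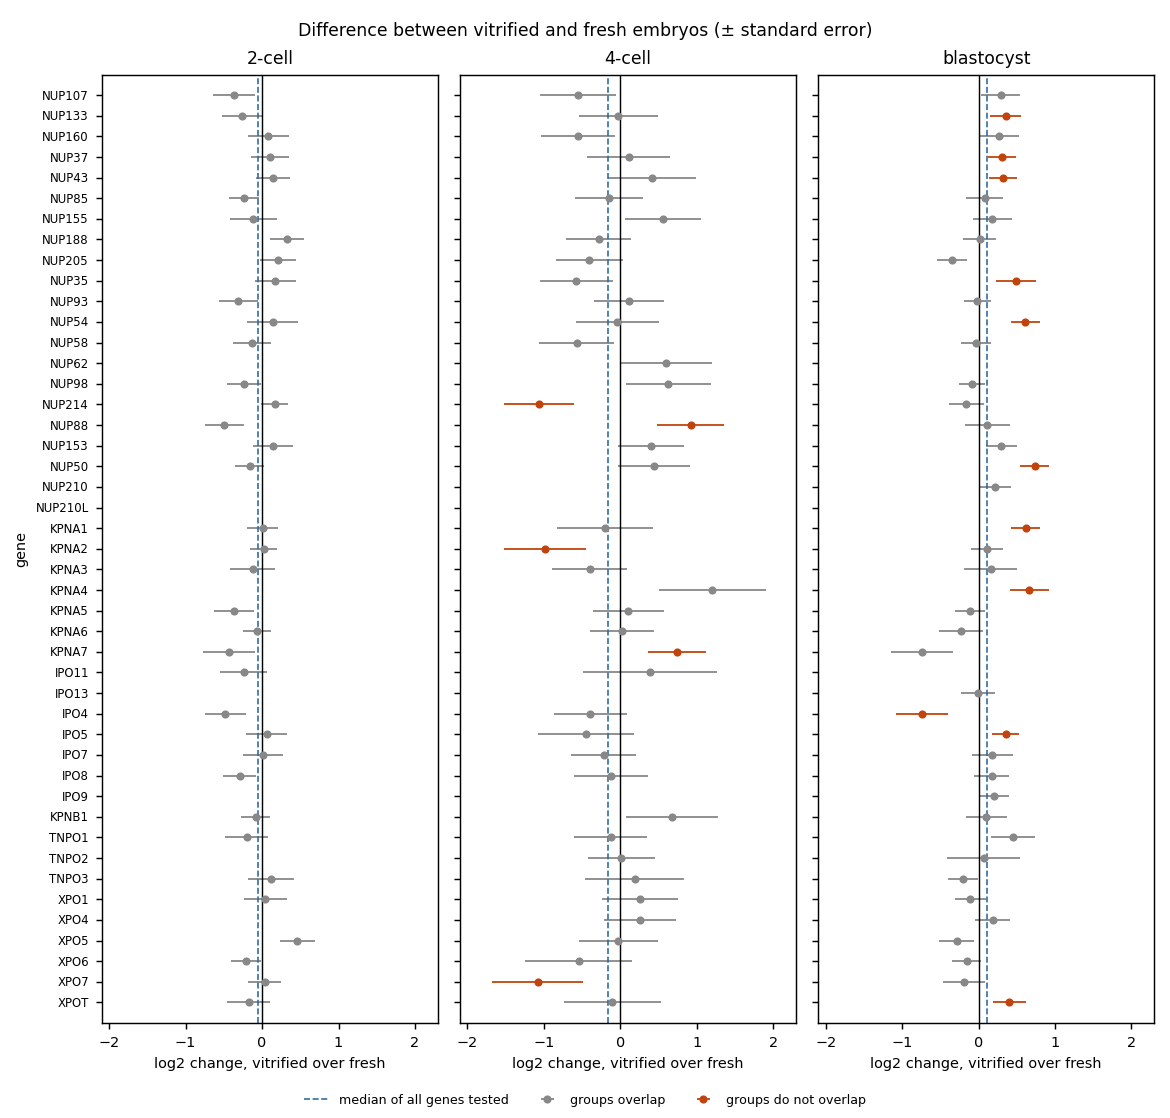
Log2 change of vitrified over fresh embryos for each member tested in 2-cells, 4-cells and blastocysts (points, with bars of 1 standard error). Genes whose vitrified and fresh libraries do not overlap are in red, and the dashed line marks the median of all genes tested, at -0.05, -0.16 and 0.11. Points lie close to 0 in 2-cells and spread from -1.08 to 1.20 in 4-cells.

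In 2-cells the changes of the members ran from -0.49 to 0.46 with a median of -0.09, beside -0.05 over all genes. NUP88 was at 14.3, 18.7 and 19.9 FPKM in vitrified and 28.5, 30.8 and 17.6 FPKM in fresh 2-cells (log2 change -0.49, SE 0.26) and IPO4 at 7.18, 5.61 and 5.22 FPKM in vitrified and 12.1, 8.92 and 5.99 FPKM in fresh 2-cells (log2 change -0.48, SE 0.27), the lowest changes. The highest were XPO5 (0.46, SE 0.23) and NUP188 (0.32, SE 0.22). The groups overlapped for every member tested, while 3.73% of all genes lay apart on the higher and 5.72% on the lower side. Fresh replicates 1 and 2 held the lowest or highest value of the 6 libraries for 28 and 27 of the 45 members, and members had a median coefficient of variation of 12.6% in vitrified and 31.4% in fresh 2-cells.

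In 4-cells NUP214 was the member called, lower in vitrified embryos. It had 151, 185 and 72.6 FPKM in vitrified, against 310.1, 233 and 258 FPKM in fresh 4-cells. All vitrified libraries lay below the fresh ones, with replicate 3 the lowest. The log2 change was -1.06 (SE 0.46, unadjusted p = 0.0459, adjusted p = 0.947 in limma). Without vitrified replicate 3 it was -0.67 and no longer called, and leaving out any of the other libraries but vitrified replicate 2 also ended the call.

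Other members of the 4-cells had groups that did not overlap but were not called. XPO7 had 11.9, 11.2 and 2.48 FPKM in vitrified and 23.2, 14.2 and 13.1 FPKM in fresh embryos (log2 change -1.08, SE 0.60), and KPNA2 was lower as well at -0.99 (SE 0.54). In both, vitrified replicate 3 was the lowest library. KPNA7 and NUP88 were on the other side. KPNA7 had a log2 change of 0.74 (SE 0.38), and NUP88 had 46.1, 29.9 and 56.2 FPKM in vitrified and 23.9, 22.2 and 20.2 FPKM in fresh embryos (log2 change 0.92, SE 0.44). The 2 higher members compare with 2.81% of all genes tested whose groups were apart in that direction, and the 3 lower ones with 8.34%.

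The vitrified 4-cell libraries also differed among themselves in the members that rise at this stage. KPNA4 was at 23.5 and 24.6 FPKM in vitrified replicates 1 and 3 but at 3.15 FPKM in replicate 2, below all fresh libraries, and its log2 change of 1.20 (SE 0.70) was not called. KPNB1, NUP62 and IPO5 were likewise lowest of the vitrified libraries in replicate 2. Without vitrified replicate 2, 6 members were called, KPNA4, KPNB1, NUP62 and NUP88 higher and NUP214 and KPNA2 lower, and the share of all genes called was 8.50% there, 3.14% higher and 5.35% lower. Vitrified replicate 3 was the highest or the lowest of the 6 libraries for 27 of the 45 members. The trophectoderm markers summed to 33.1, 5.33 and 179 FPKM in the vitrified and to 36.7, 20.9 and 55.6 FPKM in the fresh 4-cells, with 2, 1 and 2 of 7 genes at 1 FPKM in the vitrified and 2 in each fresh library. TFAP2C made up most of these sums, at 4.32 to 175 FPKM in vitrified and 17.9 to 53.2 FPKM in fresh 4-cells, while CDX2, a defining trophectoderm factor, was at the floor in all vitrified and at most 0.291 FPKM in the fresh 4-cells. Markers of the inner cell mass summed to 34.4, 42.8 and 446 FPKM in the vitrified and 37.0, 35.8 and 92.7 FPKM in the fresh 4-cells. NANOG was at up to 289 FPKM in vitrified and 29.9 FPKM in fresh embryos, KLF4 at up to 125 and 52.8 FPKM, SALL4 at up to 30.6 and 10.0 FPKM and SOX2 at up to 1.28 and 0.722 FPKM. The part of these differences between libraries in the results was not tested.

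In blastocysts 27 of the 42 members tested had a log2 change above 0, as did 62.2% of all genes, and the median was 0.14 beside 0.11. Lineage markers differed between the same groups. The trophectoderm markers summed to 3382, 2219 and 1968 FPKM in vitrified and 3699, 3573 and 3969.9 FPKM in fresh blastocysts, without overlap. The keratins KRT18 and KRT8 made up most of these sums. KRT18 was at 1322 to 1918 FPKM in vitrified and 2118 to 2471 FPKM in fresh blastocysts, and KRT8 at 559 to 1363 and 1141 to 1523 FPKM. KRT18 and CDX2 were lower in all vitrified blastocysts, whereas GATA3 and TFAP2C of the same list were higher in all of them. KRT8, GATA2 and TEAD4 overlapped. The hypoblast markers were mixed. GATA6 was higher in all vitrified blastocysts, and GATA4 and SOX17 overlapped. PDGFRA was lower, at 0.0001 to 1.07 FPKM in vitrified and 1.29 to 2.59 FPKM in fresh blastocysts. The inner cell mass markers summed to 8.07 to 14.5 FPKM in vitrified and 10.9 to 23.9 FPKM in fresh blastocysts, which overlap. NANOG of this list was at most 0.674 FPKM in vitrified and at least 0.873 FPKM in fresh blastocysts, while SALL4, KLF4 and SOX2 overlapped. The part of these differences in the changes of the members was not tested. NUP50, a nuclear basket protein that helps importin alpha release its cargo, had 6.45, 5.81 and 7.95 FPKM in vitrified and 3.61, 3.85 and 3.41 FPKM in fresh blastocysts. All vitrified blastocysts lay above the fresh ones. The log2 change was 0.74 (SE 0.19, unadjusted p = 0.00537, adjusted p = 0.157 in limma), short of the fold required. KPNA4, KPNA1 and NUP54 also had an unadjusted p under 0.05, with log2 changes of 0.66, 0.62 and 0.61 (SE 0.25, 0.19 and 0.19), and KPNA1 had 6.58, 6.39 and 5.85 FPKM in vitrified and 4.40, 3.54 and 3.35 FPKM in fresh blastocysts.

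Groups that did not overlap were seen for 10 members on the higher side, against 17.3% of all genes, and for 1 on the lower side, against 5.27%. The 10 were NUP37, NUP43, NUP133, NUP35, NUP54, NUP50, KPNA1, KPNA4, IPO5 and XPOT, and 24 of the 45 members were highest in vitrified replicate 3 among the 6 blastocysts. The single lower one was IPO4, with 5.90, 12.1 and 17.4 FPKM in vitrified and 18.4, 18.4 and 19.7 FPKM in fresh blastocysts (log2 change -0.74, SE 0.34). Vitrified replicate 3 reached 17.4 FPKM, close to the fresh range, and without it IPO4 was called lower at -1.06. KPNA7 had a log2 change of -0.74 (SE 0.40) between groups that overlapped, all of it at levels under 3 FPKM, and without fresh replicate 1 it was called lower at -1.13. Without vitrified replicate 3, 20 of 41 members were above 0. Scaling bears on the count above 0, which was 19 of 42 with quantile normalization and 21 of 42 with the median ratio.

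An interaction term, fitted to the 18 libraries together, asked whether the difference between vitrified and fresh embryos changed from stage to stage. No member passed at an adjusted p under 0.05 for any pair of stages, the lowest adjusted p being 0.354, and 0.0176% to 0.0264% of all genes did. At an unadjusted p under 0.05 there were 2 of 44 members between 2-cells and 4-cells, against 7.36% of all genes, 1 of 44 between 4-cells and blastocysts, against 11.4%, and 1 of 44 between 2-cells and blastocysts, against 3.19%. These were NUP88, whose difference was 1.41 in 4-cells minus 2-cells (SE 0.45), NUP214 at -1.22, KPNA7 at -1.48 from 4-cells to blastocysts and NUP50 at 0.90 from 2-cells to blastocysts. Without vitrified 4-cell replicate 2 KPNA4 passed the adjusted threshold. The step from the 2-cell to the 4-cell stage in vitrified embryos is thus not shown to differ from that in fresh embryos for any member.

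Of the genes around this machinery that carry other names, 4 lists were examined: other nucleoporins, the Ran cycle that gives transport its direction, messenger RNA export and the nuclear lamina. Of their members tested, none was called between vitrified and fresh embryos among 45 in 2-cells and 46 in 4-cells, and 1 of 47 in blastocysts, beside 0.450%, 3.46% and 2.26% of all genes. That gene was BANF1, a chromatin protein of the nuclear envelope, higher at 1.19 (SE 0.37). From the 4-cell to the blastocyst stage 18 fell and 6 rose of 49 in vitrified embryos and 20 fell and 6 rose in fresh embryos, where 33.9% and 24.6% of all genes in vitrified and 38.6% and 23.9% in fresh embryos did. Among the other nucleoporins 6 of 11 fell in each and none rose, with NDC1, a membrane anchor of the pore, at -2.92 in vitrified and -3.57 in fresh embryos and AHCTF1, which starts pore assembly on chromatin, at -2.69 in vitrified and -3.17 in fresh embryos. Of the 9 genes tested from the Ran cycle list, 2 rose and 2 fell in each. RANGAP1, which activates the Ran GTPase at the cytoplasmic face, rose by 2.43 in vitrified and 2.73 in fresh embryos, and NUTF2, the import receptor of Ran, by 1.35 in vitrified and 1.17 in fresh embryos. RANBP3, a Ran-binding cofactor of nuclear export, was at -2.37 in vitrified and -2.56 in fresh embryos. RANBP9, a gene of this list whose part in the Ran cycle these data do not show, was at -1.96 in vitrified and -3.68 in fresh embryos. Of 17 genes of RNA export, 2 rose and 6 fell in vitrified and 3 rose and 7 fell in fresh embryos, with PHAX, the adaptor of small nuclear RNA export, at -2.24 in vitrified and -2.77 in fresh embryos and NXT1, a partner of the messenger RNA export receptor, at 2.29 in vitrified and 2.44 in fresh embryos. AHCTF1 had risen at the first step, by 1.51 in vitrified and 1.51 in fresh embryos, and ALYREF, an adaptor of messenger RNA export, by 4.85 in vitrified and 2.84 in fresh embryos. LMNA, the gene of lamins A and C, rose to the blastocyst by 1.73 in vitrified and 2.01 in fresh embryos.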

How the data were processed

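According to the study's methods, the authors used Cutadapt for trimming, HISAT2 and Bowtie2 for mapping and StringTie for the FPKM values that were deposited per gene and library. Versions, genome build and annotation are not given in the sources used here. The methods describe full-length cDNA made with a SMART-Seq kit, while the labels describe a small RNA protocol. The deposited FPKM tables hold no zeros, and 0.0001 is the value most often found at their low end. The tables also hold the authors' fold changes, p-values and q-values, which were not used. How reads were shared between paralogs is not stated.

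The 45 members and all lists were chosen with earlier results of these data known. Values were compared as log2(FPKM + 1) using limma (version 3.58.1, R 4.3.3), its variance trend and Benjamini-Hochberg adjustment over all genes tested. The added 1 pulls the changes of low genes toward 0. The scripts were tested on simulated data. Named with values are members called between vitrified and fresh embryos and the 2 highest and 2 lowest changes at each stage, the 5 largest called changes in either direction of each step of the fresh embryos, all importin alphas, KPNB1, XPO1 and the 3 highest genes of each stage. Other members named were chosen after their values were seen.

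Replicates are separate libraries, described in the methods as biological replicates. Whether a replicate number marks a shared day is not stated. After group means were removed, libraries with the same number correlated at 0.22, 0.37 and 0.42 in 4-cells, and in the other stages and steps not all pairs exceeded 0.1. The values reported are from fits without the replicate number. The fit with it as a block is given beside the 4-cell count. There it left the count of members unchanged but moved the share of all genes called from 3.46% to 5.54%. Alternatives were a pseudocount of 0.1, no filter, a mean of at least 5 FPKM, 2 other scalings, the replicate block, other sets of libraries in the fit, adjusted p as the threshold, and leaving out each library.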

Additional observations from a re-analysis of the deposited data

How the results depend on the processing

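Depth is unknown for FPKM, so precision rests on 3 libraries a group, and the 4-cell libraries varied most. The call of NUP214 in 4-cells was the least stable count: 1 member was called, but 0 with a mean of at least 5 FPKM, 0 with quantile normalization, 0 at an adjusted p under 0.05 and 3 with all 18 libraries in one fit (KPNA4, NUP214 and XPO7). The median ratio scaling called NUP88 in its place. Of all genes, 303 of 8769 were called in the main fit and 146 of 5150 with a mean of at least 5 FPKM. With quantile normalization 294 of 8769 were called and with the median ratio 280 of 8769. For all 18 libraries in one fit the share of all genes is not given. Leaving out each library gave 0 to 6 calls in 4-cells, where 1.81% to 8.50% of all genes were called. It gave 0 to 1 calls in blastocysts (IPO4 without vitrified replicate 3, KPNA7 without fresh replicate 1), 0 in 2-cells, and 0 to 1 for the interaction (KPNA4 without vitrified 4-cell replicate 2). Between 2-cells and 4-cells it gave 7 to 15 calls in vitrified embryos (7 without 2-cell replicate 1) and 2 to 6 in fresh embryos, with 2 (IPO5 and NUP37) without 2-cell replicate 1, 2 (IPO5 and KPNA4) without 4-cell replicate 1, and 3 without 2-cell replicate 3. A fit of only the 6 libraries compared called 2 in vitrified embryos, KPNA4 and NUP37. The share of all genes called is not given for this fit, nor for leaving out a library at this step, in 2-cells, in blastocysts or for the interaction. From 4-cells to blastocysts every alternative stayed within 1.5 times the main count. The fits with the replicate block as a term gave 1 call in 4-cells, 11 and 5 in the first step, 30 and 27 in the second and 0 elsewhere, the same counts of called members as without it. Of all genes, the block called 49 of 8449 in 2-cells, 486 of 8769 in 4-cells and 198 of 7833 in blastocysts. For the steps and the interaction its share of all genes is not given. In blastocysts the block also put IPO4 at an unadjusted p under 0.05, so that 4 members were higher and 1 lower there. For 38 changes of single genes, taken from the vitrified against fresh comparisons and the steps of the fresh embryos, 491 alternative values were computed and 454 kept direction and call. Changes of single genes in the steps of the vitrified embryos are not part of these 491 values. Direction was reversed for KPNA1 from 4-cells to blastocysts in fresh embryos, at 0.11 with quantile normalization and 0.10 with the median ratio, and for KPNA5 from 2-cells to 4-cells in fresh embryos, at 0.067 without 4-cell replicate 2, its changes without single libraries spanning -0.39 to 0.067. Why results moved under these alternatives was not tested.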
